A study of Oreochromis niloticus with 21 samples.

Results

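The brain of a tropical fish, the Nile tilapia Oreochromis niloticus, was profiled in 3 RNA libraries, 1 each from fish held for 12 h at 28, 18 or 10 °C. The genes described are those with an RPKM of 5 or more in at least 1 of the 3 brain libraries, which was 5243 of the 17098 genes in the files. RPKM is the number of reads on a gene per kilobase of its length, scaled by the submitters with a number specific to each library. The same rule kept 4483 to 5238 genes in gill, heart, kidney, liver, muscle and spleen, the 6 other tissues of the series. Across the threshold the values ran on without a gap. The 5 members nearest to it had a highest RPKM of 5.0016 to 5.0026 and the 5 nearest genes outside it 4.9967 to 4.9984.

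All fish were 6 months old, and the labels give no strain or genotype. The 28 °C fish are the reference, and the 12 h at 18 or 10 °C was the only treatment named. Each of the 7 tissues gave 1 library at each temperature, 21 in all. Neither the number of fish, nor any pooling of their RNA, nor whether tissues came from the same animal is stated. With 1 library per group no difference between brain libraries could be tested, and differences between fish, dissection or library preparation cannot be told apart from temperature.

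Fish do not hold a body temperature of their own, so the brain cools with the water. In the brains of bony fishes, cold is known to call up RNA-binding proteins of the cold-inducible kind and fatty acid desaturases, which keep membranes fluid, while neurons depend on ion pumping and synaptic transmission that slow as temperature falls. The brain holds neurons, myelin-forming cells, astroglia, microglia, vessels and blood, and its transcriptome is known for many genes that few other tissues use. The deposited files name genes by Ensembl identifier, and 0 of 17098 identifiers could be paired with a gene symbol here. For this reason neither markers of brain cells nor genes of these cold-response groups could be looked up, and genes are described by their level, length and use in other tissues.

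In their place, the labelled tissue was checked against the other tissues of the series. A gene was counted as high in brain if its RPKM there was 20 or more and over 4-fold that in each of the 18 libraries of other tissues. Such genes numbered 183 in the 28 °C library, 199 at 18 °C and 109 at 10 °C. They took 12.8%, 12.9% and 5.57% of the reads. On the mean of the 3 brain libraries, which leans on the 28 and 18 °C libraries because these are alike, 162 genes met the rule. None of the 162 was at 0 in any brain library, and their share of reads was 11.6% in both the 28 and 18 °C libraries and 5.75% in the 10 °C library. The share of reads on genes high in brain was thus lower at 10 °C than in the other 2 libraries. A single gene outside these lists, described below, took 21.5% of the reads at 10 °C, which lowers every other share there. The summed RPKM of the 162 genes, which is not a share of the reads on genes, was 12953 at 28 °C, 14191 at 18 °C and 7105 at 10 °C. In whole tissue, fewer cells of a type and less RNA per cell cannot be told apart.

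The library at 10 °C stood apart and was the shallowest of the 3. Whole reads could be recovered from the RPKM values and gave totals on genes of 505455 in the 28 °C library, 920886 in the 18 °C and 331738 in the 10 °C library. The median member had 37, 68 and 18 reads in these libraries. Members at 0 reads numbered 26, 13 and 143, and members under 3 reads 81, 43 and 514, in the same order. The RPKM values themselves had medians of 6.67, 7.08 and 6.13. Reads were also spread over fewer genes at 10 °C. To reach 50% of all reads took the 855 highest genes at 28 °C, 909 at 18 °C and 434 at 10 °C, and the 10 highest genes took 5.11%, 5.22% and 29.1%.

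Across the 5243 members, the 28 and 18 °C libraries had a Spearman correlation of RPKM of 0.883. The 10 °C library reached 0.211 with that at 28 °C and 0.261 with that at 18 °C. These are descriptions across genes, which are not independent, and the members share the rule that chose them. The typical gap was likewise small for one pair and large for the others. Between 28 and 18 °C, 3985 members (76.0%) lay within 0.5 on the log2(RPKM + 1) scale, whereas between 28 and 10 °C 1231 (23.5%) did and between 18 and 10 °C 1283 (24.5%). The nearest library of another tissue was heart at 18 °C for brain at 28 °C (0.415) and 18 °C (0.411), and kidney at 18 °C for brain at 10 °C (0.214). The rule that chose the members used the brain libraries and not kidney. It took in 1018 members that passed at 10 °C alone and 1211 that passed at 28 and 18 °C but not at 10 °C. Such members pull the correlation between brain libraries down, so 0.211 and 0.214 cannot be compared as measures of likeness. Every result on 10 °C below rests on the 1 brain library at 10 °C, and none can be given without it.

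A single gene set much of that concentration. ENSONIG00000020875, with a length of 4198 bp, had an RPKM of 250 at 28 °C from 2263 reads, 72.5 at 18 °C from 1128 reads and 13800 at 10 °C from 71226 reads. It was lowest at 18 °C and highest at 10 °C, where it took 21.5% of all reads on genes (95% exact binomial interval 21.3 to 21.6%). Its RPKM at 10 °C was 55.4-fold that at 28 °C (95% counting interval 53.1 to 57.8), and at 18 °C it was 3.44-fold lower than at 28 °C (3.2 to 3.7). Intervals of this kind cover counting error in 2 libraries and not spread between fish. The gene was not confined to brain. Over the 18 other libraries its RPKM ran from 20.9 to 14000, the highest being liver at 10 °C, and against 28 °C it differed at 10 °C by 3.25 on the log2 scale in liver, 3.17 in spleen, 0.07 in kidney, -1.15 in heart, -3.75 in muscle and -5.06 in gill. The highest gene of the other 2 brain libraries behaved otherwise. ENSONIG00000004362 had an RPKM of 3020 at 28 °C, 3770 at 18 °C and 2120 at 10 °C, and its RPKM in the 18 other libraries did not pass 40.3.

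At 18 °C the brain differed little from 28 °C. Genes whose log2(RPKM + 1) moved by at least 1 between libraries, a 2-fold difference, were counted as different. The scale understates the differences of low genes. By this rule 146 of the 5243 members were higher at 18 °C (2.78%) and 72 were lower (1.37%), 218 in all (4.16%). Only 16 differed 4-fold. The differences had a median of 0.09, and 90% of them lay between -0.61 and 0.85. Counting error was of a like size. For 107 of the 146 higher and 52 of the 72 lower genes the 95% counting interval of the read ratio excluded 1, and it lay wholly beyond 2-fold for 12 and 7. The count depends on how low values are treated. It was 420 with a pseudocount of 0.1 in place of 1, and 39 with a pseudocount of 5.

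The genes named at 18 °C were the 2 highest and 2 lowest of those with an RPKM of at least 20 from at least 20 reads in the higher library. ENSONIG00000012138 had an RPKM of 7.35 at 28 °C, 34.3 at 18 °C and 9.71 at 10 °C, from 4, 32 and 3 reads. ENSONIG00000011935 followed the same course, with 10.0, 35.6 and 12.4 from 10, 61 and 7 reads. Both were high at 18 °C alone, the first 4.66-fold (1.65 to 18.2) and the second 3.56-fold (1.81 to 7.78) above 28 °C. Both genes are short, with lengths of 252 and 462 bp.

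The lowest at 18 °C were shorter still. ENSONIG00000021796, of 135 bp, had an RPKM of 703 at 28 °C, 148 at 18 °C and 1330 at 10 °C. ENSONIG00000022043, of 90 bp, had 165, 39.0 and 1180. In both the 18 °C library was lowest and the 10 °C library highest, the order also seen for ENSONIG00000020875. In all, 13 members were 2-fold lower at 18 °C and 2-fold higher at 10 °C. They had a median length of 477 bp, and their joint share of reads was 0.901% in the 28 °C library, 0.323% in the 18 °C library and 25.3% in the 10 °C library, most of the last from ENSONIG00000020875.

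At 10 °C about as many members differed from 28 °C as did not. There were 991 members 2-fold higher (18.9%) and 1703 lower (32.5%), 2694 in all (51.4%). Of these, 820 differed 4-fold, 233 higher and 587 lower. The differences ran from -5.56 to 8.06 with a median of -0.39, and 90% of them lay between -2.61 and 1.93. The counting interval excluded 1 for 933 of the 991 higher genes and 1494 of the 1703 lower ones, and lay wholly beyond 2-fold for 495 and 659. More genes were lower than higher also with median-of-ratios scaling (1124 higher, 1577 lower) and upper-quartile scaling (1079 and 1616). Setting the median difference to 0 did not keep this direction. Higher genes were 36.8% of those that differed on the deposited values, and 53.8% (1416 higher, 1216 lower) once the median difference was set to 0.

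The rule that chose the members bears on these counts. An RPKM of 5 was reached in the 10 °C library alone by 1018 members, and 710 of the 991 higher genes were among them. Such genes could only be higher at 10 °C. Likewise 1211 members reached it at 28 and 18 °C but not at 10 °C, and 872 of the 1703 lower genes were among these. Over the 1928 members at 5 RPKM in all 3 libraries, 143 were 2-fold higher at 10 °C (7.42%) and 543 lower (28.2%), with a median difference of -0.36.

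**Figure D1:**
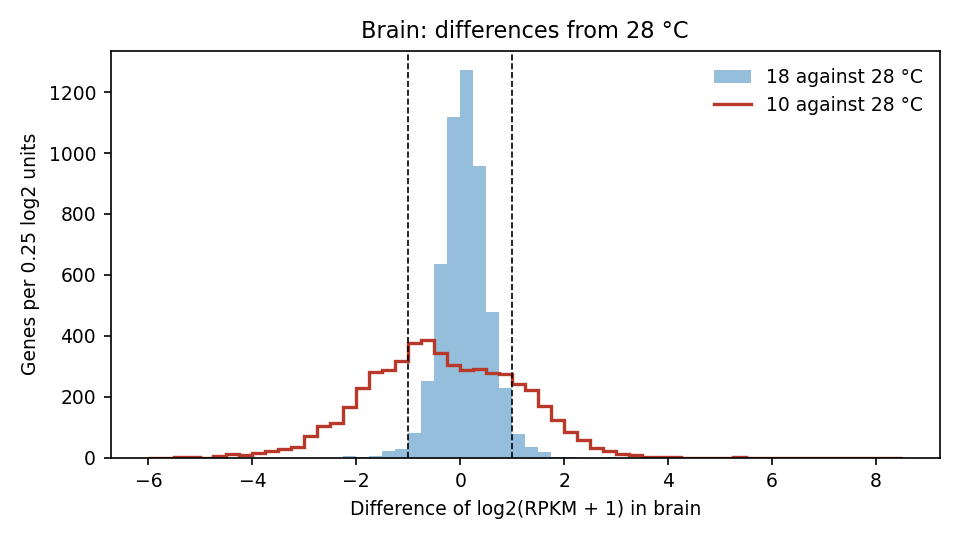
Number of brain genes (y axis) by difference of log2(RPKM + 1) from the 28 °C library (x axis, bins of 0.25), for 18 °C (filled bars) and 10 °C (line), 1 library each; dashed lines mark a 2-fold difference. The 18 °C values crowd around their median of 0.09, whereas those at 10 °C spread widely around -0.39.

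Most members that differed at 10 °C did not differ at 18 °C. Of the 2694, 2570 were 2-fold different from 28 °C at 10 °C only, 929 higher (17.7% of members) and 1641 lower (31.3%). Few were different at both temperatures, 49 higher at both and 41 lower at both, and 94 differed at 18 °C only. Neither temperature differed in 2455 members. Of the genes different at 10 °C only, lower ones were the majority on the deposited values. They stayed so with median-of-ratios scaling (1065 higher, 1516 lower) and upper-quartile scaling (1022 and 1553). Steps that centre the differences did not keep this direction. With the median difference set to 0 there were 1349 higher and 1166 lower. Removing the trend on gene length, which also centres the differences, gave 1113 and 1086. These counts share the 28 °C library. Taking 28 and 18 °C as 2 references, 724 members were 2-fold higher at 10 °C than in each of them and 1489 were lower than in each. Asking that the 18 °C value lie within 0.5 of 28 °C on the log2 scale left 650 higher and 1377 lower. The counting interval of the 10 to 28 °C ratio excluded 1 for 887 of the 929 and 1464 of the 1641. It lay wholly beyond 2-fold for 469 and 650. The same reads had picked these genes, so the counts are a description and no further evidence for the differences.

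The higher and the lower genes differed in level and length. Their levels follow in part from the rule above. Length was not used in it, but the contrast in length is not free of it. Of the higher genes, 685 were members through the 10 °C library alone, a group with a median length of 3434 bp. Of the lower genes, 865 were members through 28 and 18 °C but not 10 °C, a group with a median of 2052 bp. The pattern by length over members that passed in every brain library is given further below. Genes higher at 10 °C only were low-level, long genes, with a median RPKM of 2.34 at 28 °C, 3.01 at 18 °C and 9.09 at 10 °C and a median length of 3378 bp. Their joint share of reads was 5.39%, 6.48% and 19.5% in the same order. Genes lower at 10 °C only were well expressed and short, with a median RPKM of 12.0, 11.7 and 2.94 and a median length of 1795 bp. They held 39.6% of all brain reads at 28 °C and 36.8% at 18 °C, but 8.64% at 10 °C, where 116 of the 1641 had no read. Genes that differed at neither temperature had a median length of 2777 bp and held 33.7%, 35.2% and 28.0% of reads.

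Among genes that stood within 0.5 of 28 °C at 18 °C, the highest at 10 °C was ENSONIG00000002856. Its RPKM was 3.02 at 28 °C, 3.23 at 18 °C and 1070 at 10 °C, from 24, 44 and 4826 reads, a 354-fold difference (238 to 553) between 10 and 28 °C. The next was ENSONIG00000010382, with 1.12, 0.765 and 99.3 from 18, 21 and 903 reads, an 88.3-fold difference (55.5 to 150). For both, the 28 and 18 °C libraries were alike and the 10 °C library stood far above them. In other tissues ENSONIG00000002856 was most abundant in muscle, with an RPKM of 76800 at 28 °C and 269000 at 10 °C, and at 10 °C it was higher than at 28 °C in 5 of the 6 tissues. ENSONIG00000010382 was highest in liver at 28 °C, with 392, and was higher at 10 °C in 2 of the 6 tissues.

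The lowest at 10 °C had no read there. ENSONIG00000019723, of 372 bp, had an RPKM of 46.1 at 28 °C and 39.9 at 18 °C from 37 and 55 reads. Taking 3 reads as the most that a count of 0 allows, it was at least 7.01-fold lower at 10 °C than at 28 °C, and with the counting error of the 28 °C reads included the lower limit was 5.42-fold. ENSONIG00000011207, of 611 bp, had 42.5 and 43.3 from 56 and 98 reads, and was at least 10.6-fold lower at 10 °C, with a lower limit of 8.34-fold in the same way. Both were expressed outside brain, up to 871 and 75.7 RPKM, in each case in heart at 18 °C.

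Of the genes that differed the same way at both temperatures, 3 passed the minimum of 20 RPKM and 20 reads for naming. ENSONIG00000003044 had an RPKM of 3.36 at 28 °C, 7.83 at 18 °C and 23.6 at 10 °C, from 5, 20 and 20 reads. ENSONIG00000019494 had 9.41, 26.9 and 47.5 from 67, 329 and 192 reads. Both rank 28, 18 and 10 °C from low to high, although for the first the counting interval between 18 and 28 °C included 1. ENSONIG00000001457 was lower at both temperatures, with 938, 395 and 379 from 1531, 1106 and 351 reads, and its 18 and 10 °C values were close to each other. With the trend on gene length removed its log2 difference at 10 °C was -0.21 in place of -1.31, which ends the 2-fold call there.

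**Figure D2:**
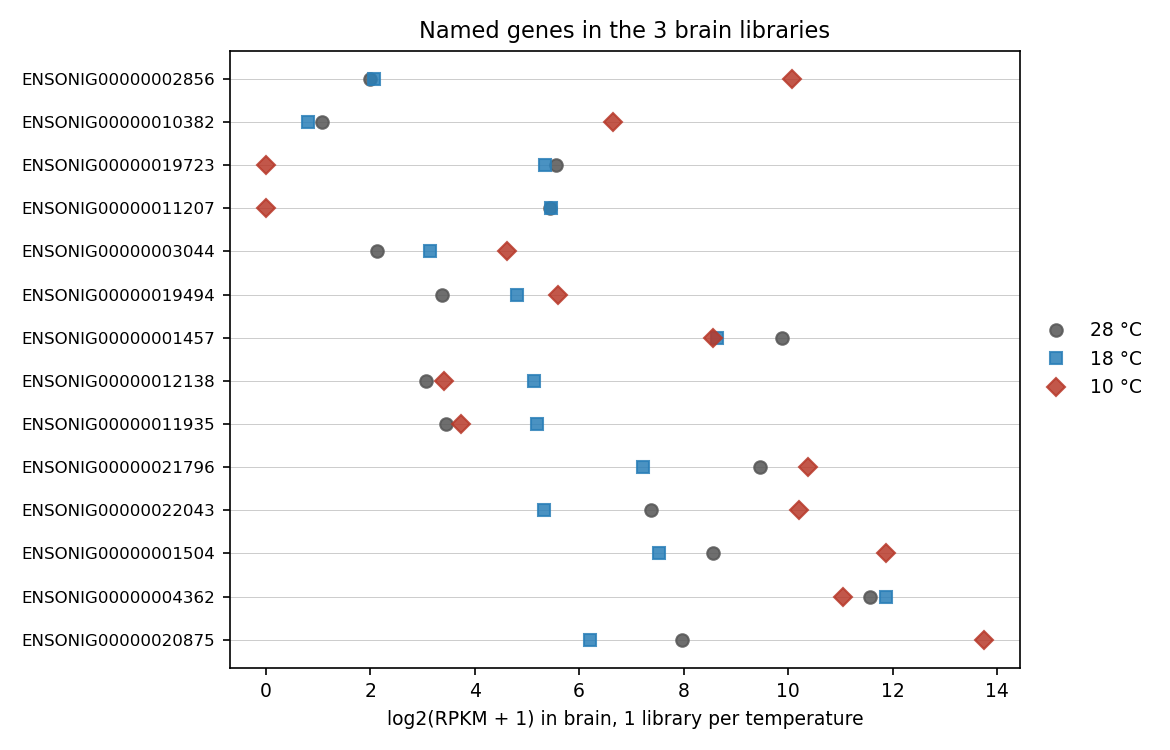
Level of 14 named genes (rows) in the 3 brain libraries as log2(RPKM + 1) (x axis); grey circles are 28 °C, blue squares 18 °C and red diamonds 10 °C, 1 library each. In the first 4 rows the circle and square lie together and the diamond far off, at 1070, 99.3, 0 and 0 RPKM.

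The 10 °C difference was lowest among genes abundant in other tissues. Members were split into 4 equal groups by their mean RPKM in the 18 libraries of other tissues, a measure that uses no brain library. From the lowest to the highest group the median difference between 10 and 28 °C was -0.11, -0.15, -0.34 and -0.90. At 18 °C the medians were 0.12, 0.09, 0.10 and 0.06. The highest group was also the most abundant in brain, with a median RPKM of 13.2 against 5.02 to 6.31. It was the shortest as well, with a median of 1955 bp against 2480 to 2593 bp. By mean RPKM in brain, the median difference at 10 °C ran from -0.13 under 10 RPKM to -1.87 at 200 RPKM and over. Over the members at 5 RPKM in all 3 brain libraries, the medians at 10 °C were -0.24, -0.11, -0.16 and -0.72, so that only the highest group stood below the rest. Among the 50 most abundant genes of the 28 °C brain, 41 were 2-fold lower at 10 °C and 1 was higher, whereas 3 were lower at 18 °C and 0 were higher. Those 50 were picked on the 28 °C library, which also enters the difference. As a list, 43 of them were also among the 50 highest at 18 °C and 23 among the 50 highest at 10 °C.

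Gene length also went with the difference at 10 °C. With members in 4 equal groups by length, divided at 1397, 2368 and 3802 bp, the median difference between 10 and 28 °C was -0.95 in the shortest, -0.70, -0.40 and 0.43 in the longest. In the shortest group 12.4% of genes were higher and 49.1% lower, and in the longest 31.5% were higher and 12.2% lower. The positive median of the longest group leaned on the members that reached 5 RPKM at 10 °C alone, which had a median length of 3434 bp. Over members at 5 RPKM in all 3 libraries, a setting chosen after seeing the data, the medians were -0.65, -0.61, -0.33 and 0.02. The order by length was kept there, with a smaller span and 10.7% higher and 12.4% lower in the longest group. At 18 °C the 4 medians lay between 0.02 and 0.12. Across members, Spearman's rho of length with the difference was 0.347 at 10 °C and 0.0629 at 18 °C, a description across genes. A trend with length was not particular to brain. Over each tissue's own genes, rho at 10 °C was 0.277 in spleen, 0.231 in liver, 0.161 in gill and 0.119 in kidney. It was 0.0587 in heart and -0.0413 in muscle. At 18 °C it was 0.322 in spleen, 0.29 in kidney, 0.241 in liver, 0.171 in muscle, 0.0728 in gill and -0.38 in heart. Short genes also have fewer reads, with a median of 5 at 10 °C in the shortest group against 50 in the longest. Among members with at least 20 reads summed over the 3 libraries, the medians of the shortest and longest groups were -1.02 and 0.43. Among members with a mean RPKM of 50 or more they were -2.0 over 119 genes and -1.0 over 18 genes, both below 0. Removing a smooth trend with length left 2325 genes differing 2-fold, 1208 higher and 1117 lower. That step also centres the differences near 0, and setting the median to 0 alone gave 1416 higher and 1216 lower. The loss of the excess of lower genes can therefore not be credited to length. The part of read depth or RNA quality in the length pattern was not tested.

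Genes expressed in all the other tissues at 28 °C were lower in brain at 10 °C more often than genes expressed in none of them. Breadth was counted as the number of the 6 other tissues with an RPKM of 5 at 28 °C. Of 1675 members with none, 416 were higher (24.8%) and 419 lower at 10 °C, with a median difference of -0.10. Of 828 members with all 6, 8.82% were higher and 46.7% lower, with a median of -0.88. The broad genes were also shorter (median 1906 against 2644 bp) and more abundant in brain (median 16.9 against 5.66 RPKM). Within length groups the order was kept. In the shortest group the medians were -0.58 for genes with none of the other tissues and -1.44 for broad genes, and in the longest group 0.46 and 0.11. Over members at 5 RPKM in all 3 brain libraries the medians were -0.20 (521 genes with none) and -0.79 (625 genes with all 6). For 1 to 5 other tissues they were -0.16, -0.16, -0.30, -0.17 and -0.29, so that only the genes with all 6 stood apart there.

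**Figure D3:**
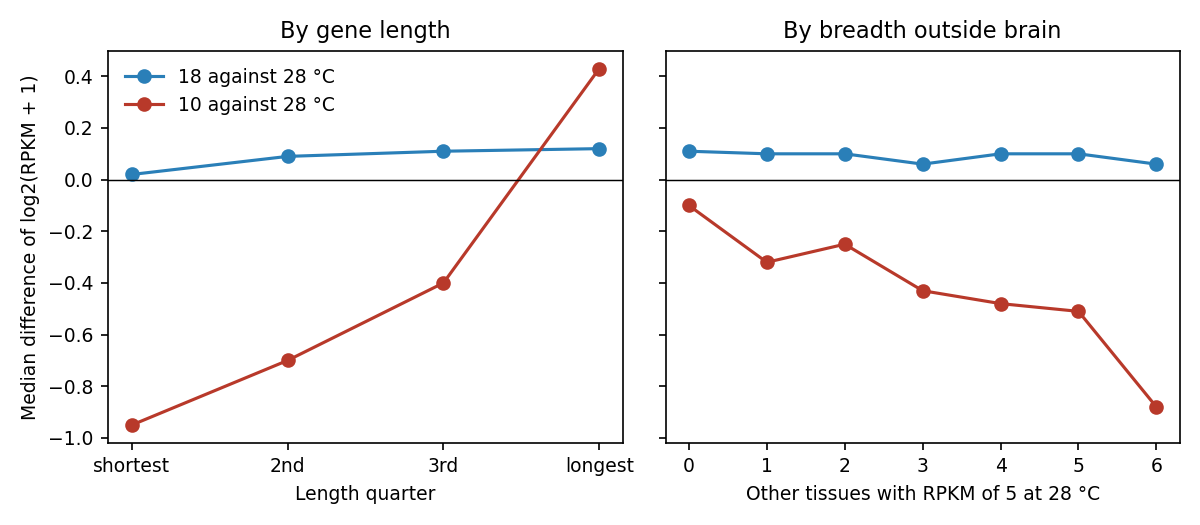
Median difference of log2(RPKM + 1) from 28 °C (y axis) over brain genes by gene length in 4 equal groups (left) and by the number of other tissues with an RPKM of 5 at 28 °C (right), for 18 °C (blue) and 10 °C (red), 1 library each. The red line climbs from -0.95 to 0.43 with length and falls from -0.10 to -0.88 with breadth, while the blue line stays between 0.02 and 0.12.

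RNA of other tissues was looked for with lists made without brain libraries. A list held the genes with a mean RPKM of 20 in 1 other tissue and 4-fold above the next of the 6. Genes enriched in spleen (52, of which 32 were members) summed to an RPKM of 1740 in brain at 28 °C, 893 at 18 °C and 4860 at 10 °C, and took 1.15%, 0.682% and 4.27% of reads. Of the 32 members 15 were higher at 10 °C (46.9%, against 18.9% of all members) and 3 were lower, where 32.5% of all members were lower. Most of the sum at 10 °C was ENSONIG00000001504, named here after its values were seen, with 379, 183 and 3740 RPKM in brain and 19300 to 24500 in spleen. At 28 and 18 °C the leading gene was instead ENSONIG00000001457, described above, with 938 and 395 RPKM against 379 at 10 °C. Without the leading gene of each library the sums were 805, 498 and 1120. These sums leave out different genes, and the 1120 at 10 °C is the sum without ENSONIG00000001504. At 28 °C that gene held 379 of the 1740, and at 18 °C 183 of the 893. Without it the list was thus lower at 10 than at 28 °C, and higher than at 18 °C. That order between 10 and 28 °C leaned on ENSONIG00000001457. With both genes left out, the sum was highest at 10 °C. The median gene of the full list had an RPKM of 3.95 in brain at 28 °C, 2.5 at 18 °C and 6.76 at 10 °C.

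By summed RPKM, the muscle list had the same order as the full spleen list, lowest at 18 °C and highest at 10 °C. The gill list was also highest at 10 °C. Those of heart, kidney and liver were lowest at 10 °C. Genes enriched in heart (102, 28 members) summed to 1760, 1940 and 621, with 0 of the 28 members higher and 18 lower at 10 °C. Over all members 18.9% were higher and 32.5% lower. Those of kidney (144 genes) summed to 401, 424 and 191, and those of liver (438 genes) to 2910, 3190 and 1710. Those of gill (104 genes) summed to 106, 156 and 178, with 68 of the 104 at 0 in brain at 10 °C. Their share of reads was 0.102%, 0.125% and 0.119%. ENSONIG00000017468 held 96.9 of the 178 at 10 °C. Without the leading gene of each library the gill sums were 85.6, 122 and 80.9, though the gene left out at 28 °C was another one. Muscle genes (272) summed to 1100, 961 and 1720. Their leading gene was ENSONIG00000013788 at 28 and 18 °C and ENSONIG00000002856 at 10 °C. Without the leading gene of each library the muscle sums were 826, 773 and 652, which also leave out different genes. ENSONIG00000002856 had only 3.02 and 3.23 RPKM at 28 and 18 °C. Without it the muscle list was thus lower at 10 °C than in the other brain libraries. The 10 most abundant spleen genes summed to at least 30200 RPKM in every spleen library and to 4540 in brain at 10 °C. The part of RNA from other cells or tissues in the 10 °C differences was not tested.

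Set beside the other 6 tissues, the brain had the fewest 2-fold differences at 18 °C and the second most at 10 °C. Each tissue was counted over its own genes with an RPKM of 5. At 18 °C brain had 4.16%, kidney 23.2%, spleen 30.1%, muscle 33.8%, gill 34.7%, heart 54.3% and liver 62.2%. At 10 °C brain had 51.4%, liver 62.1%, spleen 41.0%, gill 35.5%, muscle 29.5%, kidney 20.8% and heart 15.1%. Genes different at 10 °C only were 49.0% in brain and 6.34% (heart) to 18.8% (spleen) elsewhere. In heart the reverse held, with 45.5% different at 18 °C only, and in liver 50% of genes differed the same way at both temperatures. Each of these figures compares 1 library with another. The number that scales RPKM also varied against the reads on genes. In liver, these reads were 1.425 of it at 28 °C, 0.531 at 18 °C and 0.641 at 10 °C. In heart they were 0.335, 0.439 and 0.334, and in muscle 0.922, 0.973 and 1.767. With each median difference set to 0, brain had 3.95% at 18 °C and 50.2% at 10 °C. Liver then had 61.4% and 60.6%, and heart 54.0% and 14.2%.

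**Figure D4:**
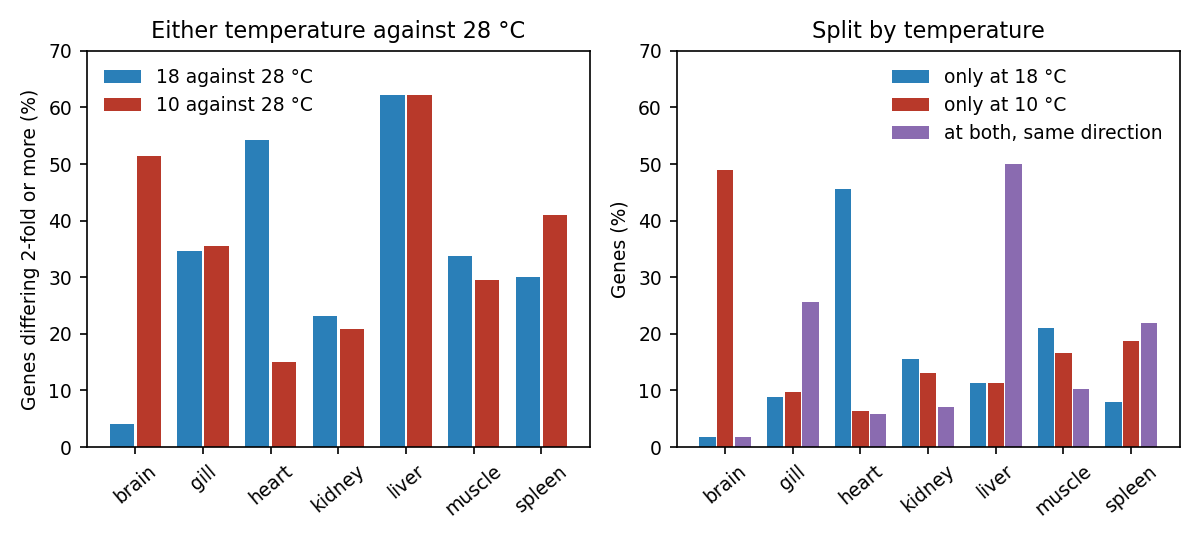
Percent of genes differing 2-fold or more from 28 °C in each of 7 tissues (x axis), over genes with an RPKM of 5 in that tissue, 1 library per tissue and temperature. Left, 18 and 10 °C; right, genes different only at 18 °C, only at 10 °C, or at both in the same direction. Brain has the lowest bar at 18 °C (4.16%) and the highest share of genes different only at 10 °C (49.0%).

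The same genes were then followed in the other tissues, where they had an RPKM of 5 at 28 or 10 °C. In spleen, 286 of the 403 expressed genes that were higher in brain at 10 °C only were also 2-fold higher at 10 °C (71.0%) and 3 were lower, against 22.2% higher and 19.3% lower over all 2673 members expressed there. Of 931 genes lower in brain at 10 °C only, 399 were lower in spleen (42.9%) and 30 higher. In liver, 163 of 322 were higher (50.6% against 23.4%) and 471 of 878 lower (53.6% against 38.0%). Gill and muscle went the other way. In gill 14 of 369 were higher and 139 lower (37.7% against 22.1%), and in muscle 15 of 247 were higher and 68 lower (27.5% against 11.7%). Heart and kidney were near the values over all members, with 2.88% (against 3.7%) and 7.28% (against 5.81%) higher. Of the genes lower in brain at 10 °C only, 6.77% were lower in heart (against 8.29%) and 14.3% in kidney (against 11.4%). In gill 23.5% of these were higher (against 14.0%), and in muscle 21.3% (against 15.2%).

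Shared differences over many tissues were rare. Among the 929 genes higher in brain at 10 °C only, 3 were 2-fold higher in 4 or more of the other tissues (0.323%, against 0.248% of all members). Among the 1641 lower genes 11 were lower in 4 or more (0.670% against 0.629%). At this cut of 4 or more tissues, neither share stood far from that of all members. Sharing with fewer tissues was more common than among all members. Of the higher genes, 59.2% were 2-fold higher in 0 other tissues, against 68.8% of all members. Of the lower genes, 49.7% were lower in 0 other tissues, against 64.0%. All these shares include genes not expressed in the other tissues. Of the 929 higher genes 324 (34.9%) had an RPKM of 5 at 28 or 10 °C in 0 other tissues, as had 349 (21.3%) of the 1641 lower ones and 27.0% of all members.

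Across genes, the difference of brain at 10 °C followed that of spleen at 10 °C with a Spearman correlation of 0.726 over 2496 genes expressed in both. It was 0.389 with liver (2207 genes), 0.0766 with kidney, -0.0478 with heart, -0.292 with gill and -0.347 with muscle. Brain and the other tissues share no library, but genes share length and level. With the trend on length removed from both, the values for spleen and liver were 0.657 and 0.319. With the 18 °C library of the other tissue as its reference in place of 28 °C, the correlation was 0.415 with spleen, -0.0886 with liver, 0.709 with heart, 0.28 with gill and -0.308 with kidney. Correlations of either sign were also seen between unmatched temperatures. These share the 28 °C libraries with the matched ones, so they are not independent of them. The difference of brain at 10 °C had a correlation of -0.729 with that of heart at 18 °C over 2748 genes (-0.636 with length removed), where 18.3% of genes had the same sign. It was 0.584 with spleen at 18 °C, 0.393 with kidney at 18 °C and -0.444 with gill at 18 °C. Brain at 18 °C had 0.158 with spleen at 10 °C.

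**Figure D5:**
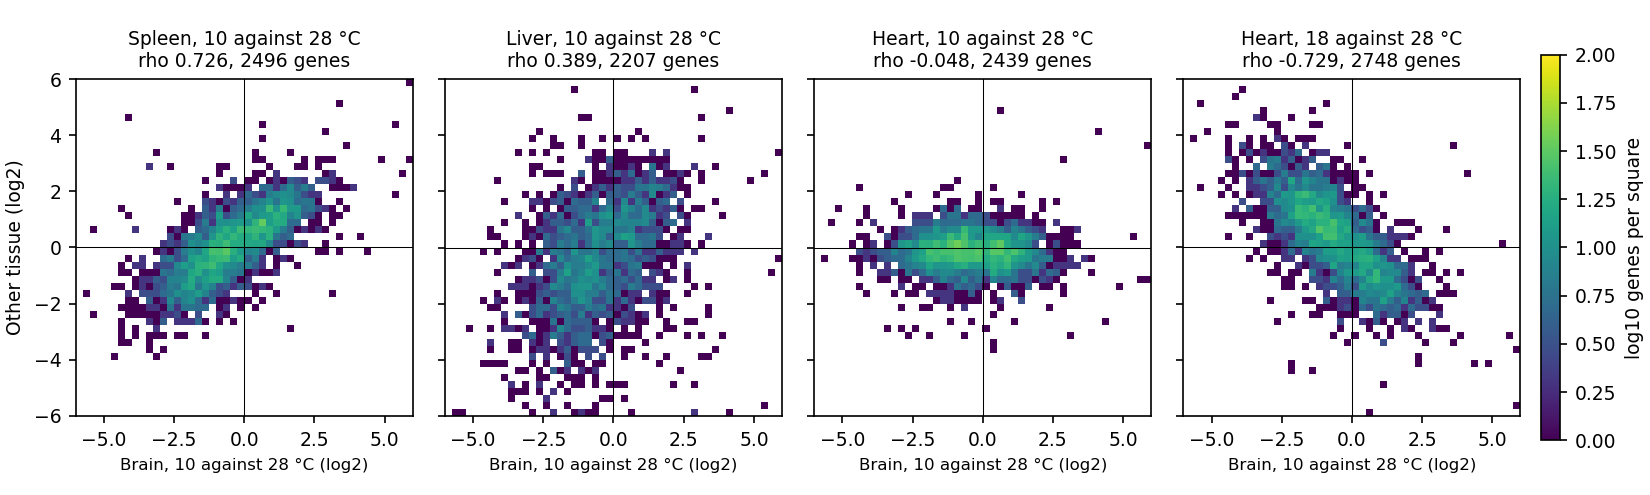
Difference of log2(RPKM + 1) between 10 and 28 °C in brain (x axis) against the difference in another tissue (y axis) for genes expressed in both; colour is log10 of the genes per square, and values beyond 6 are drawn at the edge (1 to 10 genes a panel). The cloud rises for spleen at 10 °C, is flat for heart at 10 °C and falls for heart at 18 °C.

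A test of brain against the other tissues was made with limma on log2(RPKM + 1) in all 21 libraries, asking for each of 15312 genes whether the brain difference departed from the mean of the other 6. At 10 °C, 419 genes passed a Benjamini-Hochberg adjusted p of 0.05 (2.74%), 209 with a higher (1.36%) and 210 with a lower difference in brain (1.37%). At 18 °C 14 passed (0.0914%), 12 higher (0.0784%) and 2 lower (0.0131%). Of the 15312 genes tested, 7272 had a mean RPKM of 5 in 0 other tissues. The spread in this test comes wholly from how the other 6 tissues vary, and none of it from brain. Of the 419, 402 had a mean RPKM of 5 in 0 other tissues, where that spread is small. Among the 2279 genes with a mean RPKM of 5 in at least 4 other tissues, 0 passed at 10 °C with limma, where the lowest adjusted p was 0.428, although 160 had a p under 0.05 before adjustment. With limma-voom on the recovered reads of all genes 0 passed, the lowest adjusted p being 0.97, with 633 under 0.05 before adjustment.

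Members made up 330 of the 419. They were 144 of 910 tested genes that were higher in brain at 10 °C only (15.8%) and 139 of 1627 that were lower (8.54%), against 6.34% of all members tested. Brain differences were part of both the pattern and this test, so these shares are a description.

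Of the genes that passed at 10 °C, the highest coefficient that met the rule for naming was that of ENSONIG00000003625. It had an RPKM of 1.28 at 28 °C, 0.411 at 18 °C and 42.6 at 10 °C in brain, and was lower at 10 than at 28 °C in 6 of 6 other tissues, with differences of -2.55 to -0.03 on the log2 scale. The brain difference exceeded theirs by 5.38 ± 1.28 (SE; limma adjusted p 0.0391, and 0.00841 to 0.97 over the alternatives). ENSONIG00000013478 had 3.65, 6.16 and 39.8 in brain and at most 1.22 elsewhere, and exceeded the others by 3.02 ± 0.44 (limma adjusted p 0.0013, and 1.31e-07 to 0.977). In both, the 10 °C brain library was the highest of the 3, and the first reached 73.2 RPKM in spleen at 28 °C. ENSONIG00000013478 was at 0 in 12 of the 18 other libraries. Its adjusted p therefore says little of whether brain differed from tissues that use the gene.

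On the lower side, ENSONIG00000021057 had an RPKM of 224 at 28 °C, 187 at 18 °C and 5.95 at 10 °C from 199, 284 and 3 reads. This is a 37.7-fold lower value at 10 than at 28 °C (12.7 to 184). It was at 0 in 17 of the 18 other libraries and its difference at 10 °C was 0 in 6 of 6 other tissues. The coefficient was -5.02 ± 0.58 (limma adjusted p 0.0002, and 4.11e-08 to 0.977 over the alternatives), which sets 1 brain library against tissues without the gene. ENSONIG00000014452 had 23.0, 44.0 and 0, and at most 6.0 in other tissues, with -4.60 ± 0.77 (limma adjusted p 0.00348, and 1.93e-05 to 0.977). Both were near or at 0 in most libraries outside brain, so their adjusted p says little of whether brain differed from tissues that use the gene. Neither ENSONIG00000020875, the highest gene of the 10 °C brain, nor ENSONIG00000002856, the gene with the highest brain difference at 10 °C, passed in limma. Their coefficients were 6.36 ± 2.97 and 4.62 ± 3.22.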

How the data were processed

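Each of the 21 deposited files holds 1 RPKM value for each of 17098 Ensembl gene identifiers, computed by the authors, per the file headers. RNA was extracted with Trizol and made into TruSeq libraries, per the labels' protocols, and the submitters' processing notes name TopHat, Bowtie and HTSeq. Their versions, the build and the annotation were not stated in the sources used here. RPKM equals whole reads over gene length and a number specific to the library, and solving for these gave whole reads (within 1e-06) for 17086 genes. In the brain that number was larger than the reads on genes, which were 0.234 to 0.270 of it. In the other tissues they were 0.253 (gill at 28 °C) to 1.767 (muscle at 10 °C) of it. Recovered reads served for depth, shares, lengths and exact 95% counting intervals, which cover counting error only, since PCR copies could not be recognised.

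Differences were taken on log2(RPKM + 1). The test against other tissues used limma (version 3.58.1, R 4.3.3) with its trend option, tissue as a block, temperature and a brain term at 18 and at 10 °C. It kept genes that reached an RPKM of 1 in 3 or more libraries, was two-sided and had 10 residual degrees of freedom. The fits were checked on simulated data. Named genes were the 2 highest and 2 lowest per comparison with an RPKM of 20 and 20 reads in the higher library, the highest gene of each brain library, and 1 gene chosen after its values were seen. No gene that passed at 18 °C met this minimum. The members and lists were chosen with earlier results of these data known. Lists of gene symbols could not be used. Sequences were not used here.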

Additional observations from a re-analysis of the deposited data

Results flagged for a closer look

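For each of 27 measures, 1 value per tissue was compared over the 7 tissues, and 8 had a tissue whose gap to the nearest other passed Dixon's 95% critical value. Chance gives about 1 in 20, which is 1.4 of 27, but several genes had been named for their brain values. The share of genes different at 10 °C only was 49.0% in brain and at most 18.8% elsewhere. The correlation of gene length with the difference at 18 °C was -0.38 in heart and 0.0629 to 0.322 in the others, brain having the lowest of these.

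Brain stood apart at 10 °C for 4 genes that had been named for their limma coefficient, so this is no further evidence: ENSONIG00000003625 (a log2 difference of 4.26), ENSONIG00000013478 (3.14), ENSONIG00000021057 (-5.02) and ENSONIG00000014452 (-4.58). For ENSONIG00000021057 the other 6 values were 0. Another tissue stood apart for ENSONIG00000011935, at -5.11 in liver at 18 °C, and for ENSONIG00000004362, at 2.16 in muscle at 10 °C. In the limma test, which has 1 brain library per temperature, 419 genes at 10 °C and 14 at 18 °C passed. Of the 419, 402 had a mean RPKM of 5 in 0 other tissues, and 0 passed with limma-voom (633 under 0.05 before adjustment) or among the 2279 broad genes (160). The coefficients were 5.38 for ENSONIG00000003625, 3.02 for ENSONIG00000013478, -5.02 for ENSONIG00000021057 and -4.60 for ENSONIG00000014452.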

How the results depend on the processing

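Totals of 2-fold differences in brain stayed within 1.5 times under the other scalings, the length correction and a minimum of 20 reads. Counts of higher or of lower genes alone did not under every setting. Lower genes stayed the majority at 10 °C with median-of-ratios scaling, upper-quartile scaling and a minimum of 20 reads (935 higher, 1652 lower). They did not with the length correction or with the median difference set to 0. With the length correction, lower genes at 10 °C went from 1703 to 1117 and those lower at 10 °C only from 1641 to 1086. That correction also centres the differences, and setting the median to 0 alone gave 1216 and 1166. With 20 reads, genes lower at 18 °C went from 72 to 47. The gap between the longest and shortest genes at 10 °C fell from 1.38 to 0.67 over members at 5 RPKM in all 3 brain libraries. At 18 °C the count of 218 became 420 with a pseudocount of 0.1, 39 with 5, 534 with a floor of 1 RPKM or none, 34 with a floor of 20, 16 at 4-fold and 943 at 1.5-fold. At 10 °C the 2694 became 1355 with a pseudocount of 5, 4478 with a floor of 1 RPKM or none, 698 with a floor of 20 and 820 at 4-fold. Genes different at 10 °C only became 1338, 4229, 678 and 813 under the same settings. In the limma test at 10 °C, 419 became 32 with a pseudocount of 0.1, 1003 with 5, 655 with no filter, 230 with no trend, and 0 with limma-voom or among the 2279 broad genes. At 18 °C, 14 became 0, 170, 41, 1, 0 and 0 in that order, 68 over the members alone, 0 with the pair of temperatures alone (363 under 0.05 unadjusted), and 8 without the gill and liver libraries at 28 °C and the heart library at 18 °C, a setting chosen after seeing the data, as was the broad-gene one. Leaving out 1 other tissue gave 370 to 473 at 10 °C, and at 18 °C 6 without heart to 24 without kidney. With its own 18 °C library as reference in the other tissue, the correlation with brain at 10 °C fell to 0.415 in spleen and changed sign in liver (-0.0886), heart (0.709), gill (0.28) and kidney (-0.308); the cause was not tested. Of 90 values of named genes 89 stayed on their side of a 2-fold difference, though sizes moved with the pseudocount, as for ENSONIG00000019723 (-8.85 to -3.35) and ENSONIG00000014452 (-7.85 to -2.49). With the length correction ENSONIG00000001457 at 10 °C moved to -0.21 and ENSONIG00000004362 from -0.51 to 0.41. No paired analysis was possible because each group has 1 library and the labels give no replicate numbers; in the limma test tissue was already a block. Depth limits low genes most, as 514 members had under 3 reads at 10 °C.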
